A study of Mus musculus with 36 samples.

Results

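The CC chemokine genes described here were 10 genes of the 19879 listed in the deposited tables. They were taken by symbol: Ccl2, Ccl3, Ccl4, Ccl5, Ccl6, Ccl7, Ccl9, Ccl12, Ccl20 and Ccl22. This list was chosen with earlier results of these data known. Counts of called members beside the share over all genes are therefore descriptive only. The 10 genes were followed in poly(A) RNA-seq of BV-2, a microglial line immortalised from mouse and therefore 1 line only. The 36 libraries form 12 groups of 3. Cells were treated for 4 h or 24 h with DMSO alone, with ethanol (EtOH) alone, with lipopolysaccharide (LPS, 600 ng/ml, a bacterial cell wall product that activates microglia), or with LPS and 1 of 3 compounds. The compounds were cannabidiol (CBD, 6 µM) and a pair of fumaric acid esters given at 30 µM, dimethyl fumarate (DMF) and monomethyl fumarate (MMF). DMF and MMF were dissolved in DMSO and CBD in EtOH, vehicle stood at 0.2% in every group, and serum was lowered to 0.1% just before treatment. Which vehicle went with LPS alone is not given in the sources used here, so an effect of a compound on top of LPS and an effect of its solvent cannot be told apart from these groups alone. Beyond the immortalised line itself, no genetic alteration of the cells is described in the sources used here. The 3 libraries of a group come from repeated experiments.

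The libraries held 14110424 to 26676607 counted reads each, with a median of 16230584. All 12 genes of a list of microglial and macrophage markers had a median normalised count of at least 10, and the summed level of that list ran from 26916 to 52969. Astrocyte, neuron, T cell and oligodendrocyte markers were sparse: Aqp4 and Snap25 had 0 reads in 36 libraries, and Cd8a, Mog, Olig2 and Rbfox3 at most 1 read in any library. Mbp and Map2, which stand on the oligodendrocyte and neuron lists, were present with medians of 1101 and 174.

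CC chemokines are small secreted proteins with a pair of adjacent cysteines near the amino terminus, which attract leukocytes by binding G protein-coupled receptors on their surface. Microglia make several of them when Toll-like receptors are engaged, and NF-kB is among the transcription factors that act on their genes. Ccl2, Ccl7 and Ccl12 act through CCR2 on monocytes. Ccl3, Ccl5, Ccl6 and Ccl9 bind CCR1, and Ccl4 is a macrophage inflammatory protein close to Ccl3 in sequence. Ccl20 acts through CCR6 and Ccl22 through CCR4. Levels below are normalised counts on a scale common to all 36 libraries, given as mean ± SD with n = 3, and "per kb" means divided by the length of the annotated exons. Fold changes, SEs and adjusted p-values come from limma on log2(normalised count + 1) in the 6 libraries of each deposited table, and a gene was called at an adjusted p below 0.05. Normalisation holds the median log2 fold change over all genes close to no change in every comparison, so that median shows the scale only. A gene was tested where at least 3 libraries reached a normalised count of 10. Ccl6, Ccl12, Ccl20 and Ccl22 therefore often entered a test only through the group where they were higher. For calls between a pair of groups, counts are also given over the members that reached 10 in every library of both groups, which was not done for differences between times. Every call between a pair of groups that a gene entered in this way was also made when no filter was used. Because this is bulk RNA, fewer cells making a transcript and less transcript per cell cannot be told apart.

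In the GRCm39 genome 8 of the 10 genes lie on chromosome 11, in separate stretches. Ccl2 (chr11:81926397-81928279, plus strand), Ccl7 (chr11:81936538-81938351, plus strand) and Ccl12 (chr11:81992671-81994226, plus strand) form the first, with gaps of 8.3 kb and 54.3 kb. The second begins 1422.4 kb further on and holds Ccl5, Ccl9, Ccl6, Ccl3 and Ccl4, with gaps of 9.2 to 54.8 kb. Ccl3 (chr11:83538670-83540181, minus strand) and Ccl4 (chr11:83553410-83555509, plus strand) lie 13.2 kb apart. Ccl20 is on chromosome 1 (chr1:83094487-83096888, plus strand) and Ccl22 on chromosome 8 (chr8:95472218-95478327, plus strand). Positions of the genes are as deposited, and promoters were taken from the canonical transcripts of GENCODE M39. The longest identical stretch shared by the transcripts of any pair of members was 25 bases, for Ccl6 and Ccl9. Ccl3, Ccl5, Ccl6 and Ccl9 overlap an annotated long non-coding RNA on the opposite strand, and since no source says whether the counting used strand, reads from those transcripts cannot be told apart from theirs.

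The 150 bases directly before the annotated start are shown for the members that the results turn on, because these moved in pairs or stood apart from the rest. They were read from GRCm39 in the direction of transcription, and capitals mark a match to the NF-kB consensus on either strand. Ccl20, Ccl9 and Ccl5 are the 3 with a match.
Ccl20 (chr1:83094337-83094486, plus strand): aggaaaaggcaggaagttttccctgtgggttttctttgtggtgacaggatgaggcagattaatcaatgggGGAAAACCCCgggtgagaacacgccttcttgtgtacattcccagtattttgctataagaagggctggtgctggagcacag
Ccl9 (chr11:83469468-83469617, minus strand): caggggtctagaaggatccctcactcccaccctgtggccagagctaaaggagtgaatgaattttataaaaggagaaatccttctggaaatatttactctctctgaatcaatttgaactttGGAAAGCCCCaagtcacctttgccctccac
Ccl5 (chr11:83421346-83421495, minus strand): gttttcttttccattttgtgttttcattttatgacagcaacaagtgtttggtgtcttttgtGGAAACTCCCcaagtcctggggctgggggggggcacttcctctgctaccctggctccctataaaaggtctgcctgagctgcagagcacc
Ccl2 (chr11:81926247-81926396, plus strand): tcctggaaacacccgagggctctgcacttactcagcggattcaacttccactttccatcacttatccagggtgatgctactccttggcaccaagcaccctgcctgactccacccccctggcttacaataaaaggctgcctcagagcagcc
Ccl7 (chr11:81936382-81936531, plus strand): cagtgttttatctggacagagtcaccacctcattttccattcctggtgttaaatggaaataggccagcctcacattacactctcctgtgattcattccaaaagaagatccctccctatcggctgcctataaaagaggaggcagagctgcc
Ccl3 (chr11:83540192-83540341, minus strand): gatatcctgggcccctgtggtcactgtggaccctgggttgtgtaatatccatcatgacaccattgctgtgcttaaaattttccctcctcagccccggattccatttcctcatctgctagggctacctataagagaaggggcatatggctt
Ccl4 (chr11:83553233-83553382, plus strand): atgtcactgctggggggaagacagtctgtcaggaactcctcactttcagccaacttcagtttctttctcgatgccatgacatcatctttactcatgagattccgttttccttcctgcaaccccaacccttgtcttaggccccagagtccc

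Over the 250 bases before the start, 3 of the 10 members (Ccl5, Ccl9 and Ccl20) held a match to the NF-kB consensus, against 7.63% of 21757 protein-coding promoters of the same length. The match lay 89 to 80 bases before the start in Ccl5, 80 to 71 bases before it in Ccl20 and 30 to 21 bases before it in Ccl9. The AP-1 motif TGANTCA, read on both strands, was present in Ccl7 and Ccl9 and in 6.18% of all promoters. TATAAA, read on the strand of the gene, was present in Ccl5, Ccl7 and Ccl9 and in 8.04% of promoters, and the IRF motif GAAANNGAAA in 0 of 10 members and 3.32% of promoters. In the 3′ UTRs, the AU-rich heptamer TATTTAT was found in 5 members (Ccl3, Ccl4, Ccl12, Ccl20 and Ccl22) and in 24.1% of 13158 genes whose 3′ UTR fell in the members' length range. These are matches of letters in these windows and say nothing of binding.

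Per kb of exon, Ccl3, Ccl2 and Ccl4 made up most of the summed level of the 10 genes. In DMSO at 4 h the sum was 2191 ± 251 per kb, of which Ccl3 took 31.6% ± 3.99, Ccl2 24.5% ± 3.33, Ccl4 17.8% ± 0.815 and Ccl9 16.8% ± 2.72. LPS at 4 h brought the sum to 15348 ± 2340 and LPS at 24 h to 10274 ± 823. Ccl6, Ccl12, Ccl20 and Ccl22 were scarce in every group, and none of them exceeded 70.9 per kb on average. The highest sum, 37256 ± 4152 per kb, was in LPS with CBD at 24 h.

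**Figure D1:**
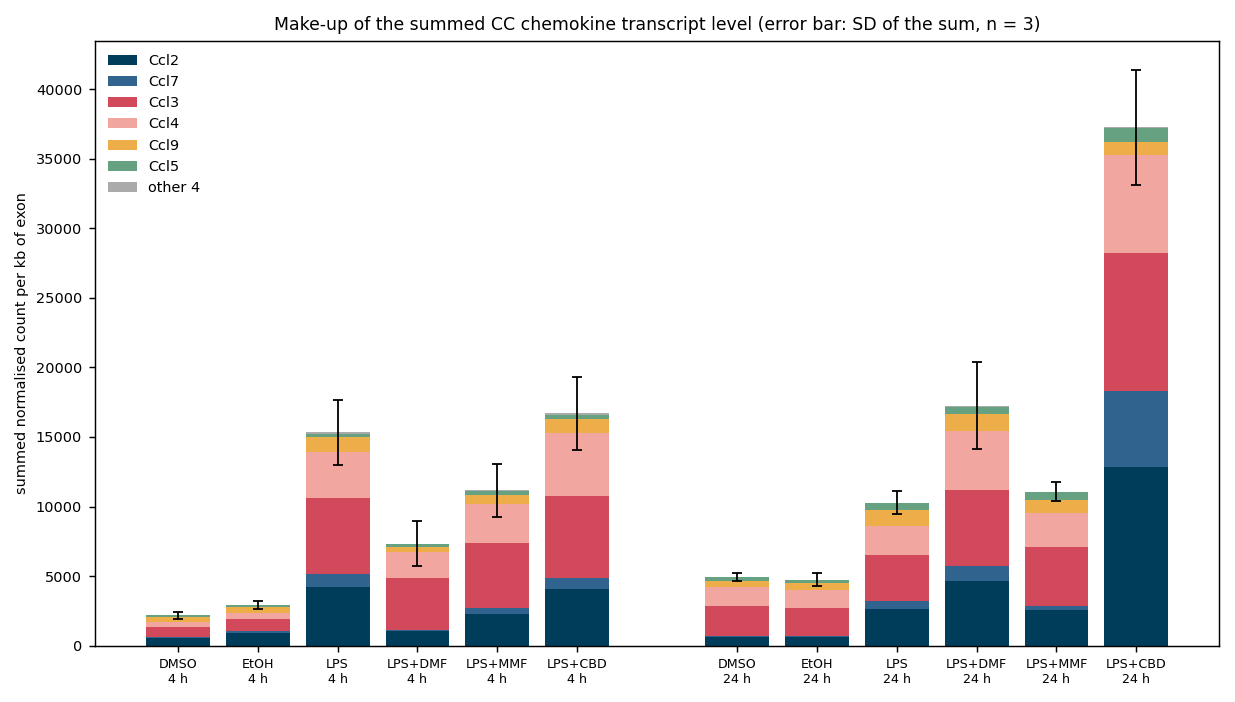
Stacked bars give the mean normalised count per kb of exon of each member in the 12 groups, and the error bar is the SD of the sum over 3 libraries. The sum stood at 2191 in DMSO at 4 h, 15348 in LPS at 4 h and 37256 in LPS with CBD at 24 h, where the Ccl7 share was 14.7% against 5.04% in LPS alone.

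**Figure D2:**
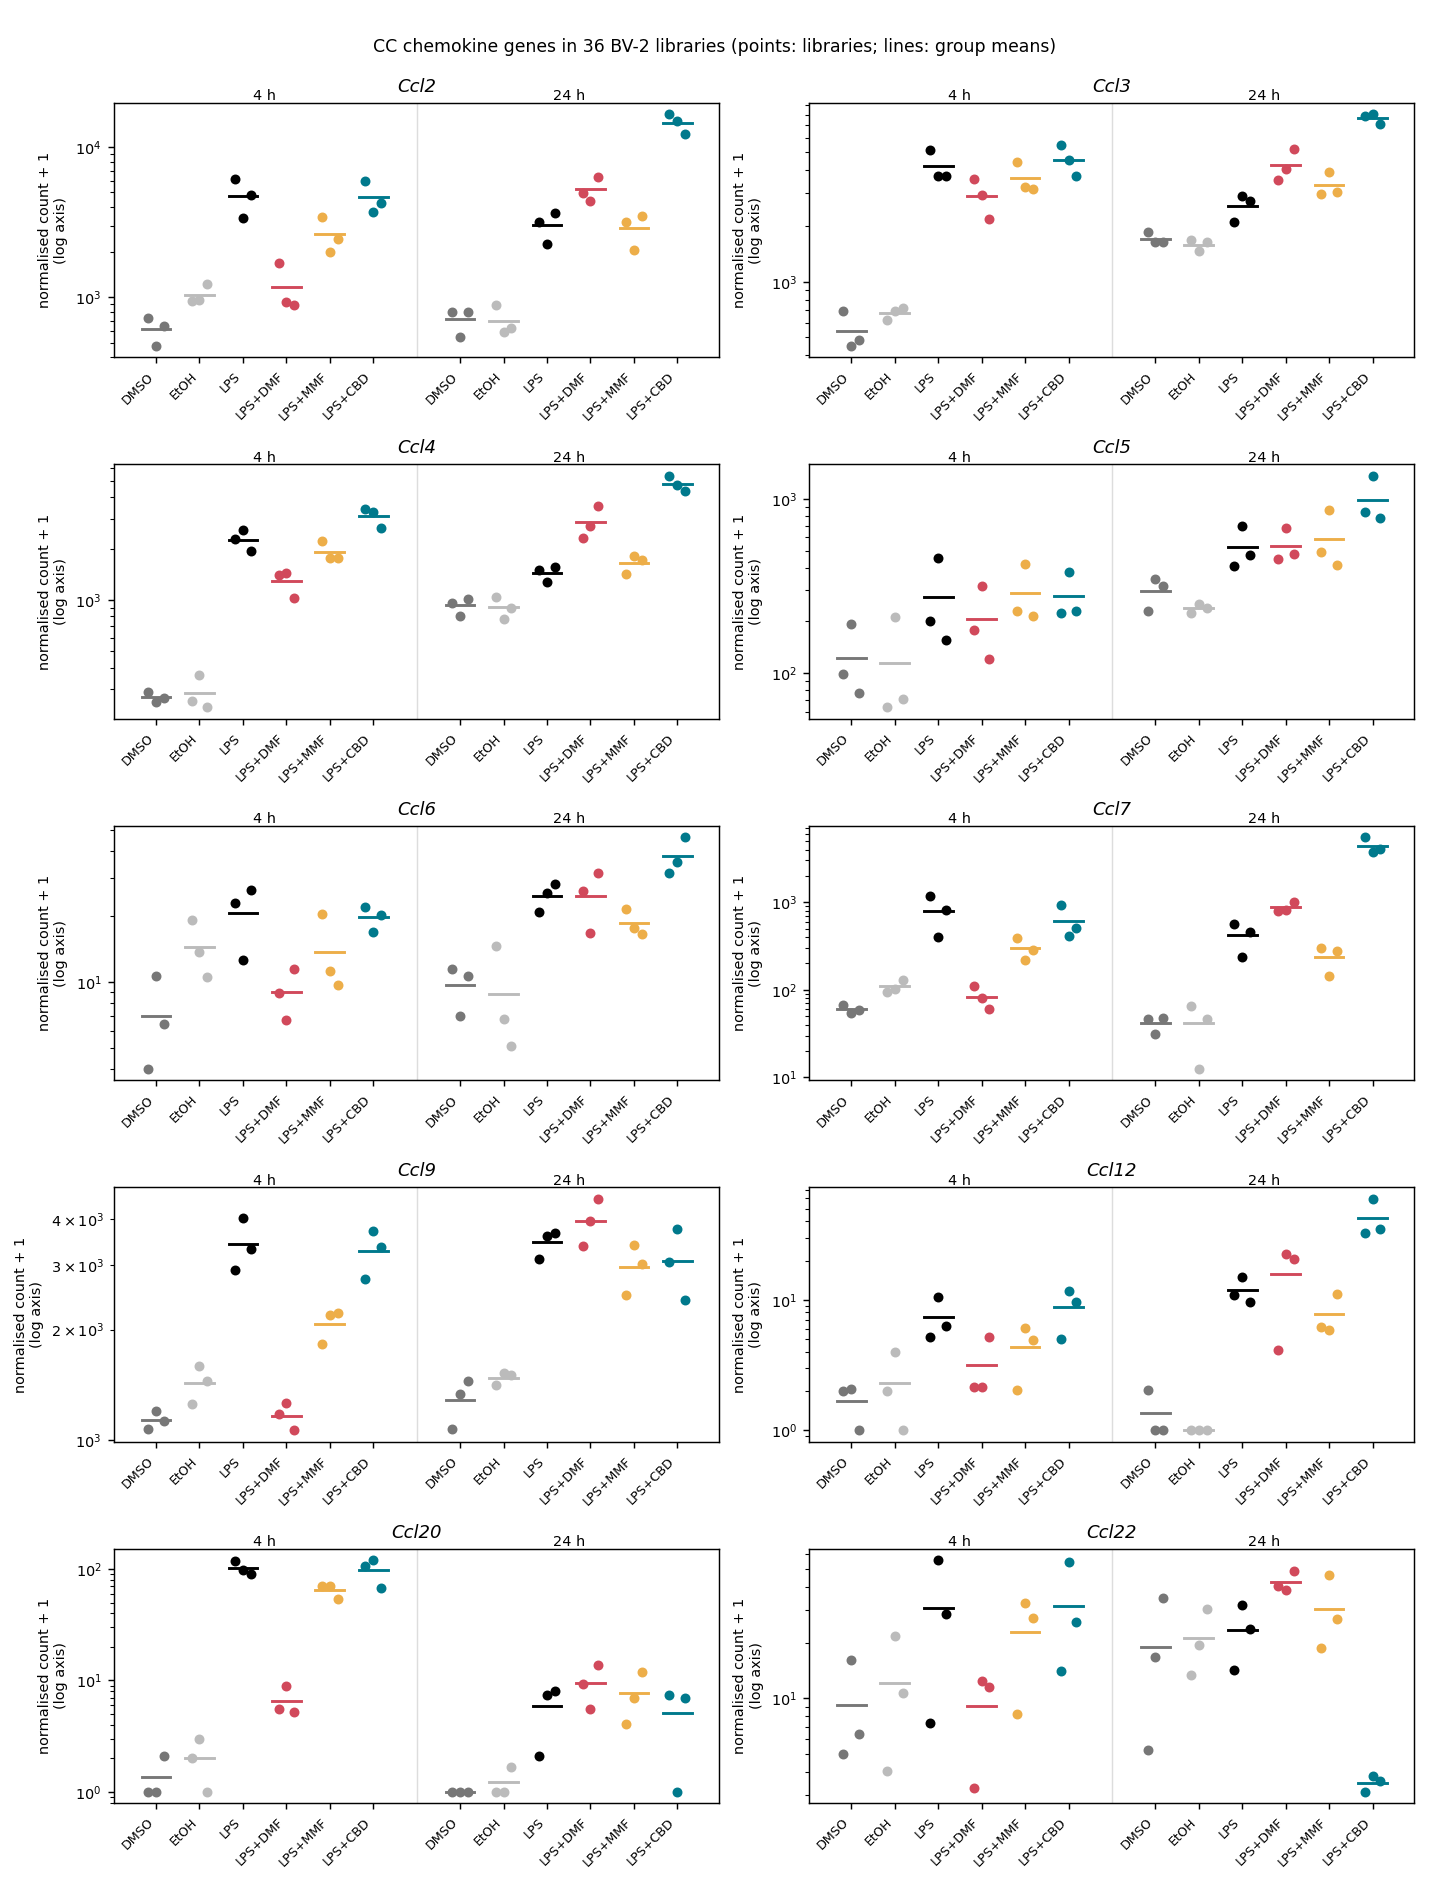
Each panel shows 1 member on a log axis (normalised count + 1), with a point for each of the 36 libraries and a line at the group mean. Ccl20 stood between 53.3 and 119 in LPS, LPS with MMF and LPS with CBD at 4 h and at no more than 12.8 in the libraries of every other group, and Ccl22 was lowest in LPS with CBD at 24 h.

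LPS for 4 h raised transcripts of the CCR2 ligands Ccl2 and Ccl7, the macrophage inflammatory proteins Ccl3 and Ccl4, the CCR1 ligand Ccl9 and the CCR6 ligand Ccl20. Ccl2 had normalised counts of 726, 474 and 640 in DMSO and of 6133, 3377 and 4788 in LPS. Every LPS library was above every DMSO library, and Ccl2 was 7.62-fold higher (log2 2.93, SE 0.213, adjusted p = 9.58e-05). Ccl7 went from 58.8 ± 6.27 in DMSO to 803 ± 398 in LPS, where its libraries read 1193, 399 and 817 (log2 3.61, SE 0.331, adjusted p = 3.27e-04). The LPS library with the lowest Ccl7 was also the lowest for Ccl2, and no LPS library reached down to the DMSO level. The neighbours Ccl3 and Ccl4 rose by near-equal steps, 7.76-fold and 8.35-fold (adjusted p = 3.19e-05 and 1.96e-06). Ccl3 rose from 542 ± 134 to 4199 ± 817 and Ccl4 from 268 ± 18.9 to 2261 ± 320. Ccl9 rose 2.97-fold, from 1135 ± 66.9 to 3415 ± 576 (adjusted p = 1.12e-04).

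Ccl20 was close to absent without LPS. The 3 DMSO libraries at 4 h held 1 read of it in all and the 3 LPS libraries 286, so the depth-adjusted ratio was 287, with an exact 95% counting interval of 51.1 to 11378. The interval covers counting error only. In LPS its normalised counts were 116, 97.0 and 89.0, above all vehicle libraries (adjusted p = 4.03e-05). Ccl5, with libraries of 98.3, 191 and 75.8 in DMSO and of 199, 459 and 154 in LPS, overlapped between the groups and was not called (log2 1.09, adjusted p = 0.132). Ccl6 (adjusted p = 0.0557) and Ccl22 (adjusted p = 0.211) were not called either. Ccl12 held 2 reads in DMSO and 18 in LPS and was below the count needed for a test. In all, 6 of the 9 tested members were called and all 6 were higher, beside 14.1% of 11424 genes called. Of the 6 members at the count minimum in both groups, 5 were called, with a median log2 fold change of 2.95 beside -0.00 over all genes. All 6 calls held under every alternative in which the gene was tested; Ccl20 had too few libraries for a test once an LPS library was left out. Leaving out DMSO replicate 5 gave Ccl6 an adjusted p of 0.0433, and leaving out LPS replicate 1 gave Ccl22 one of 0.0383.

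Against EtOH at 4 h, which shares the LPS libraries with the comparison above, the same 6 members were called of 9 tested, and 5 of the 6 at the count minimum in both groups, beside 10.2% of all genes. Ccl3 was 2.61 higher on the log2 scale, Ccl4 3.01, Ccl7 2.76, Ccl2 2.17 and Ccl9 1.25, with adjusted p-values of 2.28e-05 to 0.00220. Ccl20 held 3 reads in EtOH and 286 in LPS, or 102-fold more after depth adjustment, with a counting interval of 34.6 to 499. Ccl5 was not called (adjusted p = 0.158), but had an adjusted p of 0.0324 without EtOH replicate 5, its highest EtOH library.

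**Figure D3:**
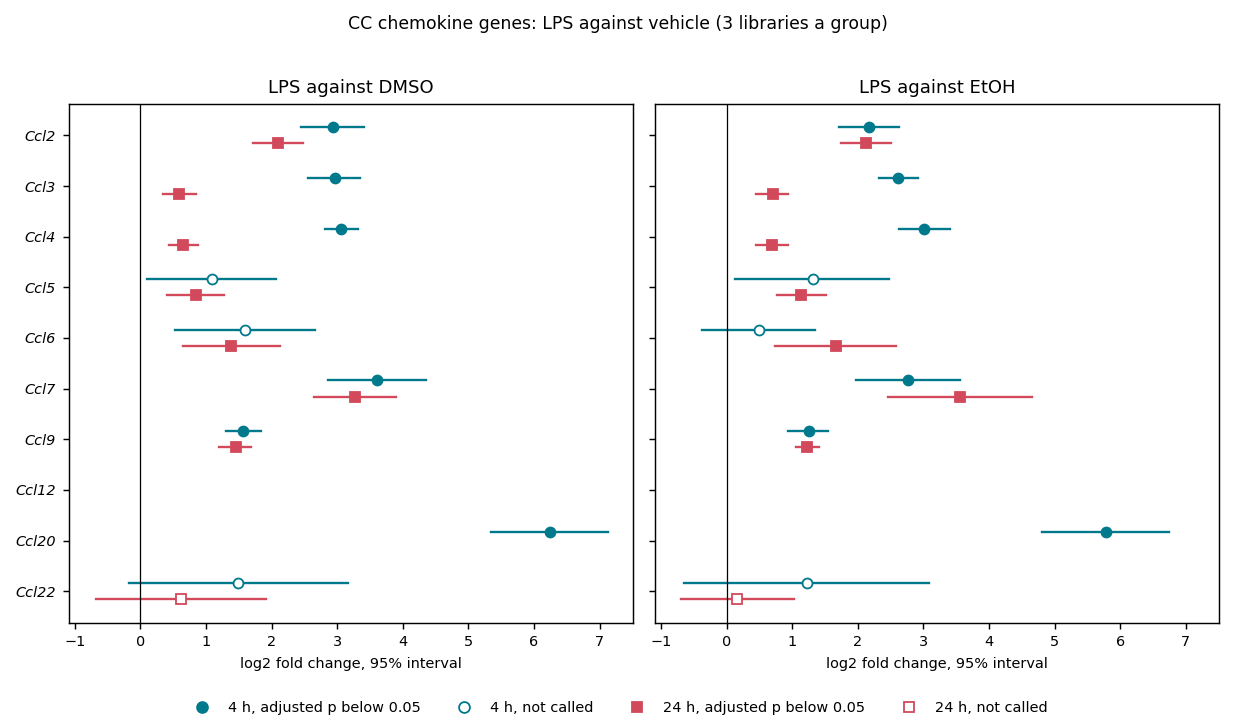
Log2 fold changes of the tested members in LPS against DMSO (left) and EtOH (right), with 95% intervals, circles for 4 h, squares for 24 h and filled symbols for an adjusted p below 0.05. Ccl3 and Ccl4 sit near 3 at 4 h and near 0.6 at 24 h against DMSO, while Ccl9 lies at 1.57 and 1.45.

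At 24 h, LPS against DMSO gave 7 calls among 8 tested members, all higher, beside 22.7% of 11574 genes. All 6 members at the count minimum in both groups were called, with a median log2 fold change of 1.15, and the seventh call was Ccl6. Ccl7 rose from 40.8 ± 9.33 to 418 ± 166 (log2 3.27, SE 0.284, adjusted p = 1.87e-05) and Ccl2 from 711 ± 143 to 3037 ± 719 (log2 2.10, adjusted p = 1.48e-05). Ccl9 rose from 1286 ± 193 to 3455 ± 295, by 1.45 on the log2 scale. Ccl3, Ccl4 and Ccl5 rose by less. Ccl3 stood at 1850, 1645 and 1635 in DMSO and at 2104, 2909 and 2716 in LPS, 1.51-fold higher (adjusted p = 0.00309). Ccl4 was 1.57-fold higher (adjusted p = 0.00101) and Ccl5, from 294 ± 60.8 to 527 ± 150, 1.78-fold higher (adjusted p = 0.0110). For Ccl3, Ccl4 and Ccl5 every LPS library was above every DMSO library. Ccl6 rose as well, from 8.73 ± 2.40 to 23.9 ± 3.74, while Ccl22 did not pass (adjusted p = 0.491). Ccl12 held 1 read in the DMSO libraries and 33 in the LPS libraries, or 27.6-fold more after depth adjustment, with a counting interval of 4.61 to 1121. Ccl20 was down to 16 reads in the LPS libraries, against 0 in DMSO.

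With EtOH as the control at 24 h the same 7 members were called of 8 tested, and 6 of the 7 at the count minimum in both groups, beside 20.5% of all genes, with log2 fold changes of 0.69 for Ccl4 to 3.56 for Ccl7. The Ccl6 call was lost without EtOH replicate 5 (adjusted p = 0.0519), EtOH replicate 6 (0.0628) or LPS replicate 3 (0.0765). EtOH at 24 h held 0 reads of Ccl12. Against the 3 reads that a count of 0 allows over the group, LPS was 13.9-fold higher, and the exact counting interval began at 10.7.

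The difference between the LPS effects at both times was tested directly. For Ccl3 the effect against DMSO was 2.38 smaller at 24 h on the log2 scale (SE 0.232, adjusted p = 9.94e-05) and for Ccl4 2.43 smaller (SE 0.164, adjusted p = 2.87e-06). Against EtOH the corresponding differences were -1.93 and -2.33. For Ccl20 they were -3.98 and -3.73 in limma (adjusted p = 0.00722 and 0.0116), but vehicle at 24 h held 0 or 1 read, and edgeR gave adjusted p-values of 0.898 and 0.546 and DESeq2 of 0.202 and 0.331. Ccl2, Ccl7 and Ccl9 had differences of -0.85, -0.35 and -0.14 against DMSO, with 95% intervals of -1.54 to -0.17, -1.42 to 0.71 and -0.52 to 0.23, and were not called. The Ccl2 difference was called without LPS replicate 2 at 4 h (-1.08, adjusted p = 0.0308) and with the replicate number as a block (-0.85, SE 0.130, adjusted p = 0.00119), where the numbers paired the LPS but not the DMSO libraries over time, and its adjusted p ran from 0.00119 to 0.231 over its alternatives. Across all genes 9.46% had a called difference against DMSO and 9.00% against EtOH, and 3 of 9 members did in each. These 3 include Ccl20, which reached the count minimum in LPS at 4 h only.

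The smaller effect of LPS on Ccl3 and Ccl4 at 24 h went with higher levels in the vehicle. Between 4 h and 24 h in DMSO, Ccl3 rose 1.66 on the log2 scale (adjusted p = 2.02e-05), Ccl4 1.77 (adjusted p = 3.59e-06) and Ccl5 1.33 (adjusted p = 0.00269). These were 3 calls among 7 tested members, and 3 of 6 at the count minimum at both times, beside 51.6% of all genes. In EtOH the same genes rose by 1.20, 1.67 and 1.24, while Ccl2 fell by 0.61 and Ccl7 fell by 1.70. That gave 5 calls of 8 tested members, and 5 of 6 at the count minimum at both times, beside 58.6% of all genes. Without DMSO replicate 4 at 24 h, 5 members were called in DMSO, Ccl9 and Ccl22 being added (adjusted p = 0.0257 and 0.0495). The Ccl5 and Ccl7 calls in EtOH were lost without EtOH replicate 6 at 4 h (adjusted p = 0.0581 and 0.0501), and DESeq2 did not call Ccl5 either (0.102). In LPS alone, by contrast, Ccl3 and Ccl4 fell by 0.71 and 0.65 on the log2 scale from 4 h to 24 h (adjusted p = 0.00363 and 0.00173), and Ccl20 fell by 4.34, from 101 ± 13.8 to 4.84 ± 3.25 (adjusted p = 1.40e-04). Ccl9 changed by 0.02, with an interval of -0.25 to 0.29. Of 9 members 5 were called in LPS over time, and without Ccl20, which reached the count minimum only at 4 h, 4 of 8, beside 48.9% of all genes. The other calls were a fall of Ccl2 (log2 -0.64, adjusted p = 0.0343) and a rise of Ccl5 (log2 1.08, adjusted p = 0.0257), in libraries that overlapped. Both were lost without LPS replicate 1 or 3 at 4 h or replicate 2 at 24 h, Ccl2 also without replicate 1 and Ccl5 also without replicate 3 at 24 h, with adjusted p-values up to 0.143, and DESeq2 called neither (0.0755 and 0.119). With the replicate number as a block, Ccl7 was called as well (log2 -0.90, adjusted p = 1.12e-04, against 0.0811 without the block), and so it was without LPS replicate 2 at 4 h (0.00445).

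The vehicles were also set against each other. At 4 h DMSO against EtOH gave 0 of 6 tested members called by limma or edgeR, beside 0% of 11458 genes, although 4 members and 1051 genes had an unadjusted p below 0.05. Ccl2 read 726, 474 and 640 in DMSO and 943, 956 and 1220 in EtOH, without overlap (log2 -0.76, adjusted p = 0.256), and DESeq2 called it. The replicate numbers paired these libraries, and with that block Ccl2 (adjusted p = 3.76e-04), Ccl7 (log2 -0.85, adjusted p = 0.00722) and Ccl9 (log2 -0.32, adjusted p = 0.00143) were lower in DMSO. At 24 h 0 of 8 members were called by limma, edgeR or DESeq2, beside 0.00854% of all genes and 1 member at an unadjusted p below 0.05. The Ccl2 difference was then 0.02, with an interval of -0.36 to 0.40.

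DMF on top of LPS at 4 h lowered Ccl2, Ccl7, Ccl4, Ccl9 and Ccl20. Ccl20 went from 116, 97.0 and 89.0 in LPS to 4.54, 7.96 and 4.21 in LPS with DMF, which is 286 reads against 15. It was 15.7-fold lower (log2 -3.97, SE 0.298, adjusted p = 1.22e-04), reached the count minimum only through the LPS libraries, and had an adjusted p of 2.02e-04 when no filter was used. Ccl7 read 110, 78.5 and 58.9 with DMF, below all LPS libraries, and was 9.06-fold lower (log2 -3.18, SE 0.365, adjusted p = 9.03e-04). Ccl2 read 1697, 930 and 890, 4.14-fold lower (log2 -2.05, adjusted p = 0.00157). Ccl9 read 1175, 1259 and 1064, 2.91-fold lower (log2 -1.54, SE 0.128, adjusted p = 2.01e-04). Ccl4 fell least among the called members, from 2261 ± 320 to 1295 ± 227 (log2 -0.81, adjusted p = 0.00906).

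Its neighbour Ccl3 went from 4199 ± 817 to 2897 ± 711, without overlap of the groups, and was not called (log2 -0.55, SE 0.187, adjusted p = 0.101). The replicate numbers paired these libraries, and with the block Ccl3 (adjusted p = 0.00893) and Ccl22 (log2 -1.54, adjusted p = 0.0314, against 0.258) were called too. Over all alternatives the adjusted p of Ccl3 ran from 0.00893 to 0.307, and it was 0.0474 without LPS with DMF replicate 1. Ccl5 read 176, 316 and 120 with DMF, overlapping the LPS libraries (log2 -0.36, interval -1.33 to 0.61). Ccl6 had counts of 5.69 to 10.5 with DMF, below all LPS libraries, and was not called (adjusted p = 0.108). Of 9 members tested, 5 were called, all lower, beside 11.1% of 11371 genes. Of the 6 members at the count minimum in both groups, 4 were called, with a median of -1.18 beside 0.01 over all genes. The 5 calls held without any 1 library, except that Ccl20 had too few libraries at the count minimum to be tested once an LPS library was left out.

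Set against DMSO alone, LPS with DMF at 4 h left Ccl9 and Ccl7 without a called difference. Ccl9 stood at 1166 ± 97.9 against 1135 ± 66.9 (log2 0.03, interval -0.18 to 0.24) and Ccl7 at 82.5 ± 25.8 against 58.8 ± 6.27 (log2 0.43, interval -0.10 to 0.97). Ccl3 and Ccl4 stayed 2.41 and 2.25 higher on the log2 scale (adjusted p = 6.99e-05 and 1.26e-05) and Ccl2 0.88 higher (adjusted p = 0.0248). The Ccl2 call was lost without DMSO replicate 5 (adjusted p = 0.0736) or 6 (0.0626). Of 6 members tested, 3 were called beside 23.5% of all genes. Ccl3 made up 50.7% ± 1.34 of the summed level per kb in LPS with DMF at 4 h, against 35.1% ± 1.45 in LPS, and Ccl2 13.9% ± 2.97 against 27.0% ± 4.86.

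At 24 h LPS with DMF held more Ccl2, Ccl7, Ccl3, Ccl4 and Ccl22 than LPS alone. Ccl4 read 1507, 1279 and 1552 in LPS and 2327, 2707 and 3575 with DMF, 1.96-fold higher (log2 0.97, SE 0.140, adjusted p = 0.00130). Ccl3 read 2104, 2909 and 2716 against 3535, 4080 and 5224 (log2 0.73, adjusted p = 0.00583). Ccl2 read 3198, 2251 and 3662 against 4970, 4415 and 6386 (log2 0.80, adjusted p = 0.00914). Ccl7 read 559, 235 and 460 against 795, 825 and 1017 (log2 1.15, adjusted p = 0.0105). In each of these genes the lowest library with DMF was above the highest with LPS alone.

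The Ccl7 call was lost without LPS with DMF replicate 3 (adjusted p = 0.0525), and 3 members were then called. Ccl22, the CCR4 ligand, rose from 22.3 ± 8.90 to 41.7 ± 5.61 (log2 0.94, adjusted p = 0.0430), but this was the weakest call. It was lost without a filter on low counts (adjusted p = 0.0690) and without any single library other than LPS replicate 2, with adjusted p-values of 0.0760 to 0.156. Ccl9 was not called (log2 0.19, interval -0.05 to 0.42) except with the replicate block (adjusted p = 0.0270, with a range of 0.0270 to 0.641 over its alternatives). Ccl5 differed by 0.03 on the log2 scale, with an interval of -0.40 to 0.46. Of 9 tested members 5 were called, all higher, beside 25.1% of 11670 genes, and all 5 were among the 8 members at the count minimum in both groups. Against DMSO alone, 8 of 8 tested members were called higher, and 6 of 6 at the count minimum in both groups, beside 40.2% of all genes, led by Ccl7 (log2 4.43) and Ccl2 (log2 2.91), and Ccl12 held 48 reads against 1, or 39.5-fold more after depth adjustment, with a counting interval of 6.76 to 1592. The weakest, Ccl22 (log2 1.57, adjusted p = 0.0409), was lost without DMSO replicate 4 or 5 or any 1 of the LPS with DMF libraries, with adjusted p-values of 0.0597 to 0.131.

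The DMF effect at 24 h minus that at 4 h was called for 6 of 10 members, all positive, beside 16.3% of 11958 genes: Ccl20 (4.82, SE 0.697, adjusted p = 4.14e-04), Ccl7 (4.33, SE 0.502, adjusted p = 7.57e-05), Ccl2 (2.85, SE 0.358, adjusted p = 1.38e-04), Ccl4 (1.78), Ccl9 (1.73) and Ccl3 (1.27). Ccl2, Ccl4 and Ccl7 were called lower with DMF at 4 h and higher at 24 h, whereas Ccl3 was not called at 4 h, Ccl9 not at 24 h, and Ccl20 not tested at 24 h. For Ccl20 the levels at 24 h were 4.84 ± 3.25 in LPS and 8.55 ± 4.12 with DMF, with 16 and 29 reads, against 101 ± 13.8 and 5.57 ± 2.08 at 4 h. LPS at 4 h was the only one of these groups where every library reached the count minimum for Ccl20. The 6 calls held without any 1 of the 12 libraries. Ccl22 was not called in limma (2.49, adjusted p = 0.0712), was called by edgeR and DESeq2 (adjusted p = 0.0296 and 0.00634) and with the replicate block (0.00924), and had adjusted p-values of 0.00788 without LPS replicate 1 and 0.0475 without LPS with DMF replicate 2 at 4 h. That block takes the numbers as pairing over time too, which they did not do for LPS with DMF (lowest correlation 0.0284). Within LPS with DMF, 8 of 8 tested members rose from 4 h to 24 h, and 6 of 6 at the count minimum at both times, beside 58.8% of all genes. Ccl7 rose by 3.43, Ccl22 by 2.44, Ccl2 by 2.21 and Ccl9 by 1.75 on the log2 scale. The rise of Ccl3 (0.57, adjusted p = 0.0205) was lost without replicate 3 at 4 h (adjusted p = 0.0827) or at 24 h (0.0932).

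MMF is the monomethyl ester of the same acid of which DMF is the dimethyl ester, and it was given at the same dose. On top of LPS at 4 h, MMF gave 0 of 9 members called by limma or edgeR, beside 0.122% of 11431 genes, and 4 members had an unadjusted p below 0.05. The estimates had the direction of DMF for Ccl7 (log2 -1.33, interval -2.09 to -0.56, adjusted p = 0.418), Ccl2 (-0.85, interval -1.35 to -0.35), Ccl9 (-0.70, interval -0.99 to -0.42, adjusted p = 0.110) and Ccl20 (-0.64, interval -1.06 to -0.23). Ccl9 read 2897, 4035 and 3313 in LPS and 1825, 2186 and 2220 with MMF, without overlap, and DESeq2 called it (adjusted p = 7.09e-05). Ccl20 read 68.9, 69.3 and 53.3 with MMF, also below all LPS libraries. Without LPS replicate 2, Ccl2, Ccl7 and Ccl9 were called lower (adjusted p = 0.0302, 0.010 and 0.0449), within ranges of 7.09e-05 to 0.999 for Ccl2, 1.30e-04 to 0.999 for Ccl7 and 7.09e-05 to 0.485 for Ccl9 over their alternatives. With the replicate number as a block in limma, the same genes were called lower (adjusted p = 7.09e-05, 1.30e-04 and 3.79e-04). The numbers were not taken to pair these libraries, as the lowest correlation was 0.0808. Ccl3 and Ccl4 differed by -0.20 and -0.23, with intervals of -0.55 to 0.14 and -0.50 to 0.04.

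At 24 h MMF again gave 0 of 9 members called by limma, edgeR or DESeq2, beside 0% of 11584 genes, of which 440 had an unadjusted p below 0.05. Here the replicate numbers paired the libraries, and with the block 3 members were called. The 0% of all genes is from the fit without the block, and the share with the block is not given here. Ccl7 read 301, 141 and 273 with MMF against 559, 235 and 460 in the same-numbered LPS libraries (log2 -0.79, adjusted p = 4.58e-06 with the block, not called without). Ccl9 was lower (log2 -0.23, adjusted p = 0.0205 with the block) and Ccl3 higher (log2 0.37, adjusted p = 2.36e-04 with the block). Ccl2 differed by -0.07, with an interval of -0.55 to 0.41. No difference in the MMF effect between the times was called for any of 9 members by limma, edgeR or DESeq2 (0% of all genes called, 4 members at an unadjusted p below 0.05), with estimates of -0.04 to 1.13. Within LPS with MMF, 3 of 9 members changed from 4 h to 24 h, and 2 of 6 at the count minimum at both times, beside 49.5% of all genes: Ccl20 fell by 3.22 on the log2 scale, Ccl9 rose by 0.50 and Ccl5 rose by 1.04. Ccl5 was lost without replicate 3 at 4 h (adjusted p = 0.0568), and Ccl7 was called with the block, which pairs these libraries (log2 -0.36, adjusted p = 0.0318).

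Against DMSO alone, LPS with MMF gave 6 calls of 8 tested members at 4 h (8.22% of all genes) and 6 of 8 at 24 h (22.4%), all higher. Among the 6 members at the count minimum in both groups there were 5 calls at 4 h and 6 at 24 h. At 4 h they were the same 6 genes that LPS alone raised, with log2 fold changes of 0.87 for Ccl9 to 2.83 for Ccl4 in the 5 abundant genes, and Ccl20 held 190 reads against 1 in DMSO, or 181-fold more after depth adjustment, with a counting interval of 32.2 to 7204. Without DMSO replicate 5 at 4 h Ccl5 was called as well (adjusted p = 0.00358). At 24 h Ccl5 was among the 6 and Ccl20 was not tested, and the Ccl5 call was lost without DMSO replicate 6 (adjusted p = 0.0526).

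Directly against each other at 30 µM, DMF and MMF differed at both times and in opposite directions. At 4 h, 5 of 8 tested members were called, all lower with DMF, beside 8.34% of 11377 genes, and 4 of the 6 at the count minimum in both groups, which leaves out Ccl20. Ccl20 was 10.1-fold lower with DMF (log2 -3.33, SE 0.330, adjusted p = 6.12e-04), Ccl7 3.61-fold lower (log2 -1.85, adjusted p = 0.00272), Ccl2 2.30-fold lower (log2 -1.20, adjusted p = 0.0160), Ccl9 1.79-fold lower (log2 -0.84, adjusted p = 0.00214) and Ccl4 1.5-fold lower (log2 -0.58, adjusted p = 0.0342). For Ccl3 and Ccl5 no difference was called without a block, with intervals of -0.75 to 0.06 and -1.30 to 0.23. With the replicate number as a block in limma, Ccl3, Ccl5 and Ccl22 were called lower with DMF too (adjusted p = 0.0298, 0.0238 and 0.0372). The numbers were not taken to pair these libraries, as the lowest correlation was 0.043. Leaving out MMF replicate 1, 2 or 3 or DMF replicate 3 left 2 or 3 calls, since Ccl4 was lost each time (adjusted p = 0.0649 to 0.123) and Ccl2 without MMF replicate 1 or 3 or DMF replicate 3 (0.0548 to 0.0725). Ccl20 could not be tested once an MMF library was left out, and without DMF replicate 2 Ccl5 was called lower with DMF (0.0415).

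At 24 h, 4 of 9 members were called, all higher with DMF, beside 21.5% of 11665 genes, and all 4 were among the 8 at the count minimum in both groups. Ccl7 was 3.85-fold higher with DMF (log2 1.94, SE 0.245, adjusted p = 0.00112), from 238 ± 85.3 with MMF to 879 ± 121 with DMF. Ccl2 was 1.83-fold higher (adjusted p = 0.0125), Ccl4 1.72-fold (adjusted p = 0.00610) and Ccl9 1.33-fold (adjusted p = 0.0435). Ccl3 joined them with the replicate block, which pairs these libraries (log2 0.36, adjusted p = 0.00797, against 0.0958), or without MMF replicate 2 (0.0224) or DMF replicate 1 (0.0277). Leaving out the first of these added Ccl22 (0.0278) and the second Ccl12 (0.0337). Without DMF replicate 3 only 2 members were called, as Ccl2 (adjusted p = 0.0661) and Ccl9 (0.174) were lost. Ccl9 was also lost without MMF replicate 1 or 3 or DMF replicate 2 (0.0908 to 0.135). Ccl5 differed by -0.10, with an interval of -0.63 to 0.44, and Ccl6 by 0.38, with an interval of -0.29 to 1.04.

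**Figure D4:**
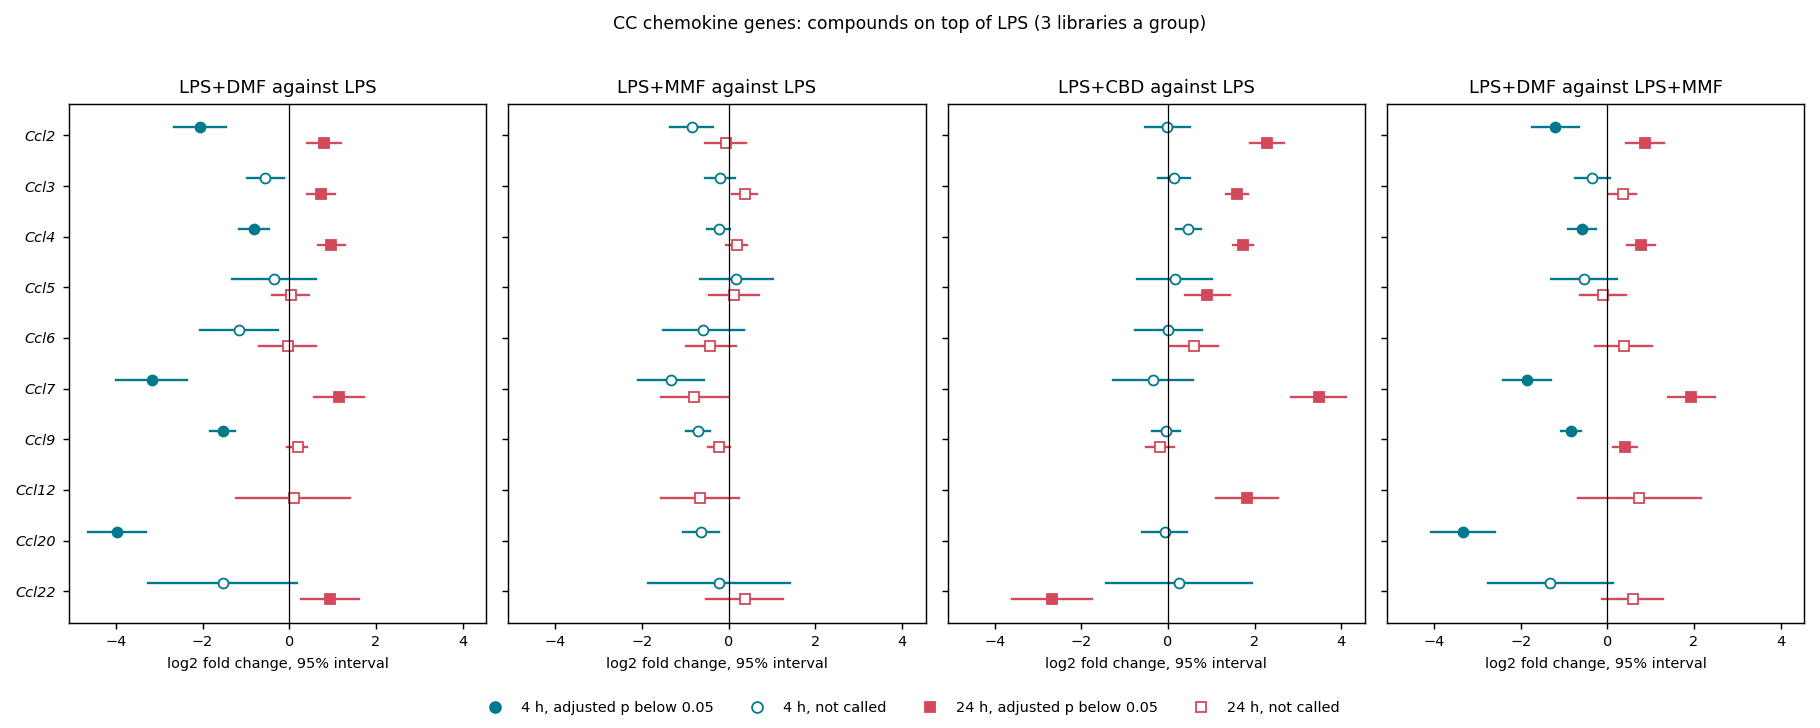
Log2 fold changes with 95% intervals for DMF, MMF and CBD on top of LPS and for DMF against MMF, with circles for 4 h, squares for 24 h and filled symbols for an adjusted p below 0.05. DMF moves Ccl2 and Ccl7 from -2.05 and -3.18 at 4 h to 0.80 and 1.15 at 24 h, and CBD has filled symbols at 24 h only.

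CBD was given at another dose and in another solvent than the fumarates, so its values were not tested against theirs. On top of LPS at 4 h it gave 0 of 9 members called by limma, edgeR or DESeq2, beside 0.00875% of 11424 genes, and 1 member had an unadjusted p below 0.05. That member was Ccl4, at 3418, 3301 and 2638 with CBD against 2283, 2569 and 1930 in LPS (log2 0.47, interval 0.18 to 0.76), without overlap. The replicate numbers paired these libraries, and with the block its adjusted p was 0.00989 in place of 0.994. The others differed by -0.34 for Ccl7 to 0.26 for Ccl22, with the narrowest interval for Ccl9, -0.37 to 0.27.

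At 24 h CBD raised Ccl2, Ccl7, Ccl12, Ccl3, Ccl4 and Ccl5 above LPS alone and lowered Ccl22. Ccl7 went from 559, 235 and 460 in LPS to 5517, 3703 and 4095, 11.1-fold higher (log2 3.48, SE 0.280, adjusted p = 2.02e-05). Ccl2 went from 3198, 2251 and 3662 to 16575, 15006 and 12181, 4.88-fold higher (log2 2.29, adjusted p = 1.60e-05). The third CCR2 ligand, Ccl12, went from 9.93, 13.9 and 8.56 to 31.6, 58.5 and 34.1 (log2 1.82, adjusted p = 0.00140). Ccl4 was 3.34-fold higher and Ccl3 3.01-fold higher (adjusted p = 4.65e-06 and 1.17e-05), at 4819 ± 500 and 7683 ± 479. Ccl5 went from 411, 696 and 472 to 836, 1353 and 776 (log2 0.90, adjusted p = 0.00969). In all 6 genes each CBD library exceeded each LPS library.

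Ccl22 went from 13.2, 31.0 and 22.6 in LPS to 2.11, 2.79 and 2.55, or from 70 reads to 8 over the groups (log2 -2.68, SE 0.414, adjusted p = 6.60e-04). It reached the count minimum only through the LPS libraries, and had an adjusted p of 5.67e-04 when no filter was used. It was also lower than in EtOH alone (20.1 ± 8.58; log2 -2.56, adjusted p = 8.93e-04). Ccl9 was not called (log2 -0.19, interval -0.51 to 0.13), although it had an adjusted p of 0.0341 without CBD replicate 2 (0.0341 to 0.875 over its alternatives). Ccl6 was not called (log2 0.60, adjusted p = 0.0719), and Ccl20 held 13 reads with CBD against 16 in LPS. In all 7 of 9 tested members were called, 6 higher and 1 lower, beside 48.7% of 11671 genes called. Of the 7 members at the count minimum in both groups, which leaves out Ccl12 and Ccl22, 5 were called, all higher, with a median log2 fold change of 1.59 beside -0.00 over all genes. The calls held without any 1 library, except that Ccl22 had too few libraries at the count minimum to be tested once an LPS library was left out.

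The CBD effect at 24 h minus that at 4 h was called for 5 of 10 members beside 32.0% of 11959 genes. It was 3.82 for Ccl7 (SE 0.554, adjusted p = 2.07e-04), 2.31 for Ccl2 (adjusted p = 1.52e-04), 1.46 for Ccl3 (adjusted p = 2.54e-04), 1.27 for Ccl4 (adjusted p = 1.47e-04) and -2.92 for Ccl22 (SE 0.901, adjusted p = 0.0246). The Ccl22 difference lost its call with a pseudocount of 5 (-1.98, adjusted p = 0.0530) or without CBD replicate 2 at 4 h (-2.42, 0.0635), LPS replicate 2 at 24 h (-2.65, 0.0559) or LPS replicate 3 at 24 h (-2.87, 0.0520). Ccl22 read no more than 2.79 in LPS with CBD at 24 h, below the count minimum. Ccl12 missed the threshold (1.58, adjusted p = 0.0501) and passed it with a pseudocount of 5 (1.36, adjusted p = 0.0236) and without LPS replicate 1 or CBD replicate 2 at 4 h or LPS replicate 2 at 24 h (adjusted p = 0.0381 to 0.0465). The replicate numbers paired the CBD and LPS libraries at each time, and with the block Ccl12 (adjusted p = 0.0151) and Ccl5 (0.76, SE 0.203, adjusted p = 0.00922, against 0.268) were called too. That block also takes the numbers as pairing over time, which they did not do for LPS with CBD (lowest correlation 0.0346). Within LPS with CBD, 9 of 10 members changed from 4 h to 24 h, 7 higher and 2 lower, and 6 of 7 at the count minimum at both times, beside 63.2% of all genes. The rise was widest for Ccl7 (log2 2.91) and Ccl12 (log2 2.29), and the falls were of Ccl20 (-4.70) and Ccl22 (-2.97). The Ccl6 rise (log2 0.90, adjusted p = 0.0123) was lost without replicate 3 at 24 h (0.0576).

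Against EtOH alone, LPS with CBD at 4 h had the 6 members called that LPS alone had, of 9 tested (13.6% of all genes), and 5 of the 6 at the count minimum in both groups. Ccl20 held 279 reads against 3, or 99.1-fold more after depth adjustment, with a counting interval of 33.6 to 484, and Ccl5 passed only without EtOH replicate 5 (adjusted p = 5.82e-04 against 0.0564). At 24 h 9 of 9 tested members were called, 8 higher and Ccl22 lower (50.5% of all genes), and 6 of 6 at the count minimum in both groups. Ccl7 stood at 4438 ± 955 against 40.5 ± 26.8 (log2 7.03, SE 0.484, adjusted p = 3.71e-06) and Ccl2 at 14587 ± 2227 against 699 ± 166 (log2 4.4, adjusted p = 1.26e-07). Ccl12 held 133 reads against 0. It was 54.7-fold higher against a floor of 3 reads over the EtOH group, and the exact counting interval began at 43.9. In LPS with CBD at 24 h the CCR2 ligands Ccl2 and Ccl7 made up 34.3% ± 1.57 and 14.7% ± 2.27 of the summed level per kb, against 25.8% ± 4.82 and 5.04% ± 2.03 in LPS alone.

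Ordered by group mean, Ccl2, Ccl3, Ccl4, Ccl5, Ccl6, Ccl7 and Ccl12 each had their highest level in LPS with CBD at 24 h, and for all of these but Ccl5 the 3 libraries of that group were above those of the next group. For Ccl6, LPS and LPS with DMF at 24 h both averaged 23.9, and the highest library of LPS with DMF (30.8) passed the lowest with CBD (30.6). For Ccl2 the next were LPS with DMF at 24 h (5257 ± 1017), LPS at 4 h (4766 ± 1378) and LPS with CBD at 4 h (4641 ± 1169), whose libraries overlapped from one to the next. For Ccl9 the 6 highest groups, from LPS with DMF at 24 h (3951 ± 583) to LPS with MMF at 24 h (2967 ± 458), overlapped from neighbour to neighbour, and LPS with DMF at 4 h ranked below 3 of the 4 vehicle groups. Ccl22 ranked highest in LPS with DMF at 24 h and lowest in LPS with CBD at 24 h, at 41.7 ± 5.61 and 2.48 ± 0.345. This order spans compounds given at different doses and in different solvents, and it carries no test.

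Over the 36 libraries the log2 level of Ccl2 was most like that of Ccl7 (Pearson's r = 0.976 among 10558 genes with a group mean of at least 50), followed by Aoah and Il6 (0.904 and 0.898). Ccl3 was most like Ccl4 (r = 0.98), then Cxcl2 and Il1rn. Ccl5 was most like H2-T23, Bst2 and Stat3 (0.954, 0.944 and 0.942), Ccl9 most like Socs3 (0.953), Cyria and Pilra, and Ccl20 most like Poldip3 (0.915), Trim13 and Marcksl1. Among members the lowest r was 0.128, between Ccl5 and Ccl20. The libraries share treatments and fall into groups, so these values describe likeness over this design and carry no test. Ccl6, Ccl12 and Ccl22 were below that mean in every group and were left out.

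Of 10 further CC chemokine genes, Ccl25 alone had a median normalised count of at least 10 (392). Ccl17 had a median of 4.91, and Ccl19 and Ccl27a held 0 reads in all libraries. Ccl25 was called in LPS with DMF at 24 h against LPS (log2 0.36, adjusted p = 0.0165) and in LPS with DMF at 24 h against DMSO (log2 0.41, adjusted p = 0.00989).

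Of the receptor genes described here, Ccr1, Ccrl2 and Ccr10 were present with medians of 272, 256 and 171. Ccr2, the receptor of Ccl2 and Ccl7, had a median of 7.83, and Ccr6 and Ccr4, the receptors of Ccl20 and Ccl22, had at most 2 and 5 reads in any library. LPS at 4 h raised Ccrl2, which binds chemoattractants without the usual signalling (log2 2.02, adjusted p = 0.00205). DMF at 4 h lowered Ccrl2 (log2 -2.07, adjusted p = 0.00209), and with MMF at 4 h it differed by -0.06. At 24 h CBD raised Ccrl2 (log2 1.75) and Ccr1 (1.19), and DMF raised Ccr1 (0.65, adjusted p = 0.0225). The DMF effect differed between the times for Ccrl2 (2.28) and Ccr1 (1.71).

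Of 16 genes for NF-kB subunits, its inhibitors and other regulators of these transcripts, LPS against DMSO raised 9 and lowered 0 at 4 h, beside 14.1% of all genes called, and raised 13 and lowered 1 at 24 h, beside 22.7%. At 4 h Nfkbiz, an NF-kB co-regulator that is itself induced, rose by 2.85 on the log2 scale (adjusted p = 1.45e-05) and Zc3h12a, an RNase that degrades cytokine mRNAs, by 2.69 (adjusted p = 1.14e-05). DMF on top of LPS at 4 h lowered 6 of the 16 and raised 0, beside 11.1% of all genes: Fos (log2 -2.28, adjusted p = 2.45e-05), Nfkbie (-1.14), Tnfaip3 (-1.02), Nfkbia (-0.89), Zc3h12a (-0.88) and Irf1 (-0.83). The subunit genes Nfkb1, Nfkb2, Rel, Rela and Relb were not among them. At 24 h DMF raised 1, Rela (0.41), and lowered 2, Tnfaip3 (-0.63) and Fos (-0.39), which is no larger a share than the 25.1% of all genes called. MMF at 4 h lowered 1, Fos (-0.97, adjusted p = 0.0485), beside 0.122% of all genes. CBD at 24 h raised 4 and lowered 3 of the 16, with Nfkbib at 0.85 and Fos at -1.01, again no larger a share than the 48.7% of all genes called. The median log2 fold change of the 16 was 0.01 for CBD at 24 h and -0.75 for DMF at 4 h. That of the tested CC chemokine genes was 1.59 and -1.54. Over the CC chemokine genes at the count minimum in both groups it was 1.59 and -1.18. These are transcript levels, and a role of NF-kB activity was not tested.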

How the data were processed

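RNA was measured by poly(A) RNA-seq in 36 libraries of BV-2 cells. Per the labels and methods, the authors trimmed reads with cutadapt 4.4 and Trimmomatic 0.39 after FastQC 0.12.1, aligned them to GRCm39 with HISAT2 2.2.1, counted them with HTSeq 2.0.3 and used DESeq2 1.40.2 in R 4.3.1. The deposited tables, 30 in number and 1 for each pair of groups, hold gene counts divided by size factors (a signal, not raw counts) for 6 libraries. They also hold the authors' log2 fold changes, p-values and test scores, which were not used. Whole reads were recovered in 155 of the 180 library columns, and 100% of 2695078 values there lay within 0.01 of a whole number; libraries held 14110424 to 26676607 reads.

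The main test was limma 3.58.1 (R 4.3.3) on log2(normalised count + 1) within each table, for genes with at least 10 in at least 3 libraries, with Benjamini-Hochberg adjustment over all genes. Differences between times were interaction terms on 12 libraries under joint median-of-ratios size factors, which also gave the levels. A count test on the recovered reads with edgeR 4.0.16 (quasi-likelihood, TMM) called 1607 genes for LPS against DMSO at 4 h, where limma called 1609. Other alternatives were DESeq2 1.42.0, a pseudocount of 5, no filter, the replicate number as a block, and leaving out each library; the scripts were tested on simulated data. Replicate numbers were taken to pair libraries where each same-numbered pair had a correlation of deviations above 0.1, which held in 10 of 16 comparisons between groups sharing numbers (lowest values 0.128 to 0.348). Counting intervals are exact and cover counting error only. Libraries of a group come from repeated experiments on 1 line, so p-values measure the spread between these repeats. The 10 members, the gene lists and the markers were chosen with earlier results of these data known. All members are described in every comparison, and for each member with a group mean of at least 50 the 3 genes most correlated with it over the 36 libraries are named. A gene of the receptor list is not reported here.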

Additional observations from a re-analysis of the deposited data

Results flagged for a closer look

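Each result here is a difference between the effects of 1 treatment at the 2 times, tested as an interaction in limma, and adjusted over all genes. The effect of LPS against DMSO was smaller at 24 h than at 4 h by -2.38 (log2) for Ccl3, -2.43 for Ccl4 and -3.98 for Ccl20, and against EtOH by -1.93, -2.33 and -3.73. The Ccl20 differences were not called by edgeR or DESeq2, and the vehicle libraries at 24 h held at most 1 read of it.

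The effect of DMF on top of LPS was more positive at 24 h by 1.27 for Ccl3, 1.78 for Ccl4, 1.73 for Ccl9, 2.85 for Ccl2, 4.33 for Ccl7 and 4.82 for Ccl20. For Ccl2, Ccl4 and Ccl7 the effect itself was called at both times, lower at 4 h and higher at 24 h.

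The effect of CBD on top of LPS was more positive at 24 h by 2.31 for Ccl2, 3.82 for Ccl7, 1.46 for Ccl3 and 1.27 for Ccl4, and more negative by -2.92 for Ccl22. The Ccl22 difference is the least stable of these, with adjusted p-values of 0.00164 to 0.0635 over its alternatives.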

How the results depend on the processing

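For the number of members called, 341 of 361 alternatives over 31 comparisons lay within 1.5 times the main count, and for single members 55 of 3031 alternatives lost a call, 58 gained one and 0 changed direction. DESeq2 called 1 member in LPS with MMF against LPS at 4 h, 1 in DMSO against EtOH at 4 h and 3 in LPS at 24 h against 4 h. Leaving out 1 library gave 3 to 5 members for LPS with DMF against LPS at 24 h, 0 to 3 for LPS with MMF against LPS at 4 h, 2 to 6 for DMF against MMF at 4 h and 2 to 6 at 24 h. It gave 3 to 5 for DMSO over time, 3 to 6 for EtOH over time and 2 to 5 for LPS over time. The cause was not tested, beyond that fewer libraries enter the fit.

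With the replicate block, where the numbers paired the libraries, 3 members were called in LPS with MMF against LPS at 24 h, 1 in LPS with CBD against LPS at 4 h and 3 in DMSO against EtOH at 4 h. Where the numbers were only shared, the block gave 3 in LPS with MMF against LPS at 4 h and 8 in DMF against MMF at 4 h, and 4 of 6 libraries correlated best with their own number in each. As many did in LPS with CBD against LPS at 24 h, where the numbers were taken to pair. The share of all genes called with the block is not given here, so the counts of members called with it have no background beside them. The block lost 0 calls and added 24 among 183 values of single members. No paired analysis was possible for LPS groups against vehicle at a single time because they share no replicate numbers. In the LPS effect at 24 h against 4 h, the block links the times within a treatment. In the effects of the compounds at 24 h against 4 h, it links treatments and times at once. The numbers did not pair the times in LPS with DMF or LPS with CBD. Depth limits Ccl6, Ccl12, Ccl20 and Ccl22, which held few reads in several groups.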
